A study of Homo sapiens with 2 samples.

Results

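Olfactory receptor genes lie in long tandem clusters, and 6 windows over such clusters held few sites of TET1 enrichment in human cardiac progenitors. The windows were chosen by position on the hg19 build, with earlier results of these data known: chr1:247600001-248850000 (called the chromosome 1q window), chr11:4380001-5200000 (distal 11p), chr11:5340001-6230000 (proximal 11p), chr11:55030001-56600000 (pericentromeric 11q), chr11:123600001-124450000 (distal 11q) and chr14:20200001-20700000 (chromosome 14q). Together they span 5.88 Mb. A peak belonged to the region that held its midpoint, and 16 of the 46208 peaks in the authors' list fell in the windows. The comparison was with 1 Mb on each side of each window, here called the flanks.

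The cells came from H1, a human embryonic stem cell line in wide use, with a V5 tag on the TET1 protein made from its own gene. Both groups, V5 ChIP and input, were cardiac progenitors from day 7 of a monolayer culture, which had received 6 µM CHIR99021 (an activator of WNT signalling) up to day 2 and 5 µM IWP2 (a WNT antagonist) between days 3 and 5. Each group was 1 library, and the peak list is the ChIP library called against input, so no replicates stand behind a value and no test was possible. The genotype entry of both libraries is wild type, the labels list no V5 ChIP of untagged cells, and the read depth was unknown. No RNA was measured, so neither the cell type nor the silence of the receptor genes in these cells was tested here.

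Olfactory receptors are G protein-coupled receptors that detect odorants, and olfactory sensory neurons of the nose are the cells known for their expression. In other tissues the clusters are mostly silent. TET1 oxidises methylated cytosine and carries a CXXC domain, a zinc finger that binds DNA rich in CpG, the base pair step that mammalian DNA methylation acts on. Many receptor genes are close copies of each other. The treatment of reads with several equally good positions is not given in the sources used here.

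Promoters of receptor genes were poor in CpG. Gene names come from RefSeq on GRCh38.p14, a build other than that of the peaks, so runs of genes were taken by their neighbours on the chromosome and no peak was joined to a gene. Runs carry the windows' names but were not cut at the windows' edges. Gene counts of a run are therefore not counts for its window. The 6 runs held 337 receptor genes, of which 181 were protein-coding and 156 were pseudogenes. A RefSeq promoter, from 250 bases before to 50 bases after the annotated start, was found for 142 of the 181. Below 80% a summary over all 6 runs is void, and the summary was kept to the 3 runs with 80% or more (chromosome 1q, distal 11p and pericentromeric 11q), where 99 of 114 genes had a promoter. These 99 promoters had a median CpG count of 1 (quartiles 1 and 2), and 21 had none. Over all 27304 genes of the promoter table the median was 14 (quartiles 3 and 28). The table is not limited to protein-coding genes, as the receptor set is, and it includes the receptors. The letters CG, which read the same on both strands, occurred in 78.8% of the receptor promoters and in 95.8% of those in the table, and 10 or more occurrences were found in 1.01% and 56.0%. The observed to expected CpG ratio had a median of 0.128 in the receptor promoters against 0.580 in the table. Among these 99, OR2L13 on chromosome 1 had most CpG, 24, and the next, OR14L1 and OR51S1, had 6 each.

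**Figure D1:**
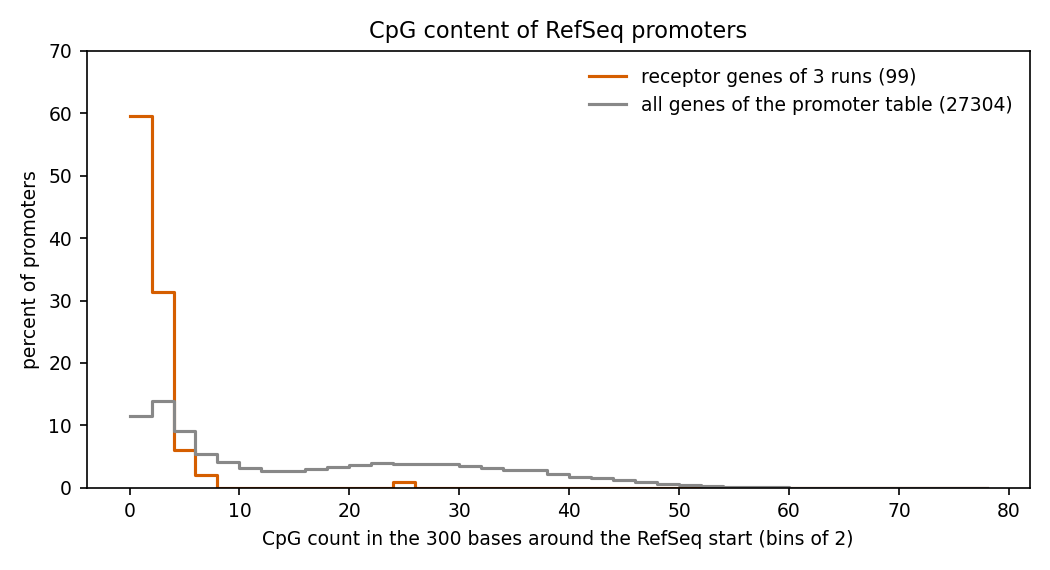
CpG count in the 300 bases around the RefSeq start (x axis, bins of 2) against the percent of promoters (y axis) for 99 protein-coding receptor genes of 3 runs and for all 27304 genes of the promoter table, protein-coding or not. The receptor genes pile up at 0 to 3 CpG, while the table extends to 77.

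An annotated start is not always a transcription start. In 44 of the 99 receptor promoters the RefSeq start was the letters ATG, which is the form of a coding start without an annotated leader, against 2.56% in the table. The 55 others had the same median CpG count of 1.

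The letters of 4 receptor promoters show what so low a CpG count looks like. For each chromosome arm the receptor gene nearest the median CpG count of the arm's promoters in the table is printed as an example (at proximal 11p, distal 11q and chromosome 14q fewer than 80% of the receptor genes had a promoter, so these medians only serve to pick examples), with the 250 bases before its RefSeq start in lower case and each CG in capitals. All lines run 5′ to 3′ on the gene's strand and are from RefSeq, GRCh38.p14. Each of the 4 holds 1 CG. They are OR13G1 (chr1:247679740-247679989, minus strand), OR51F2 (chr11:4821071-4821320, plus strand), OR10G7 (chr11:124041326-124041575, minus strand) and OR11G2 (chr14:20190646-20190895, plus strand).
OR13G1: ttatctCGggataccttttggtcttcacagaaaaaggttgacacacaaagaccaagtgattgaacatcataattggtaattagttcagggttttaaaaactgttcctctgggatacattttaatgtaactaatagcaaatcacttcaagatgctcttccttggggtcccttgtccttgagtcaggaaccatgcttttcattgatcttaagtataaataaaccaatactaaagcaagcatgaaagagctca
OR51F2: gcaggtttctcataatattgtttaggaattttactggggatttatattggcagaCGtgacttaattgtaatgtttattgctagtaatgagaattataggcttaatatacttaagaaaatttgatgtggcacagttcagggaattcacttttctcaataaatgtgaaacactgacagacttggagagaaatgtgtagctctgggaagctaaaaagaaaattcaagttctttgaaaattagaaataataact
OR10G7: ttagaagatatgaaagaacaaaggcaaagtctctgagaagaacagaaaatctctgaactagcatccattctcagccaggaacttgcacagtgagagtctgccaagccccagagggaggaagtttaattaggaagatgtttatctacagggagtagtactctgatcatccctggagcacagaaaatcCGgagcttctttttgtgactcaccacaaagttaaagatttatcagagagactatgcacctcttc
OR11G2: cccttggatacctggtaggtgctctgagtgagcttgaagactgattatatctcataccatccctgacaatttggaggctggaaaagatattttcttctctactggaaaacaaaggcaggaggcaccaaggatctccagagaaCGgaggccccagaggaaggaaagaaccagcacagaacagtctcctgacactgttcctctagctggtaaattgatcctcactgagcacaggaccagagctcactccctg

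Beside them stand the CpG-richest promoters among the 10 protein-coding genes on each side of the runs that are not receptors, printed in the same way. SCCPDH (chr1:246724159-246724408, plus strand) had 39 CG, STIM1 (chr11:3855414-3855663, plus strand), a calcium sensor of the endoplasmic reticulum, had 34, MSANTD2 (chr11:124800407-124800656, minus strand) had 32 and TEP1 (chr14:20413502-20413751, minus strand), a telomerase-associated protein, had 17. They were chosen for their CpG, so they show how far the neighbours reach and not what is usual among them. Of the 100 neighbours 72 had a promoter, too few for a summary to stand; among those found the median CpG count was 22 at chromosome 1q and at distal 11q, 12 at chromosome 14q, 6 at proximal 11p, 5 at distal 11p and 4 at pericentromeric 11q. Whether a peak lies on any of these promoters was not tested.
SCCPDH: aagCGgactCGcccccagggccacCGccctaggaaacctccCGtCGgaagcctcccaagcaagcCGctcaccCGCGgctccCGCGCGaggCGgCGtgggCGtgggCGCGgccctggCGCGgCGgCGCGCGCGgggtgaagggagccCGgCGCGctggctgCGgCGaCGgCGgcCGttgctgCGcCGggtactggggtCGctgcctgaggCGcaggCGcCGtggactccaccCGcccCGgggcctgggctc
STIM1: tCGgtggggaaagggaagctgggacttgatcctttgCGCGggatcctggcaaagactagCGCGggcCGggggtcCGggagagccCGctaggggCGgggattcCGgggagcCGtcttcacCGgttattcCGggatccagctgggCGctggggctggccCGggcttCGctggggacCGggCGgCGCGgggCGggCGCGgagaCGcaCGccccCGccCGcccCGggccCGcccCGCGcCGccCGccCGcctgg
MSANTD2: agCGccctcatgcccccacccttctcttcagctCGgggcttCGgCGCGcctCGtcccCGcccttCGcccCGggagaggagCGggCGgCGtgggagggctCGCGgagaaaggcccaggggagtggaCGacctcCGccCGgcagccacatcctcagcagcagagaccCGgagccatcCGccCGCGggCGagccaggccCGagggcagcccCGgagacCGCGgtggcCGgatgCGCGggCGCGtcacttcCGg
TEP1: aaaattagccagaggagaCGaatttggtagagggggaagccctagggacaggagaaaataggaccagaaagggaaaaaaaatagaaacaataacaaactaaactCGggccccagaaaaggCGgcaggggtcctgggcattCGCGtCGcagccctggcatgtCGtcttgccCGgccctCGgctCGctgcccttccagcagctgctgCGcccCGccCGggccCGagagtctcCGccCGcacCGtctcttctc

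Inside the 6 runs RefSeq also placed 16 protein-coding genes that are not receptors, and 13 of them had a promoter in the table. Their median CpG count was 3, with a range from 0 to 20. Only TRIM58 (20) and TRIM68 (15), of the tripartite motif family of ubiquitin ligases, reached 10 or more. Others of the same family in the runs of 11p were TRIM6 with 8, TRIM5, an antiviral restriction factor, with 6 and TRIM34 with 3. The matrix metalloproteinase gene MMP26 had none.

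Peaks were several times sparser in the windows than beside them. The CpG content of the windows and flanks as a whole was not measured, so a link between it and peak density was not tested. The 6 windows held 16 peaks, or 2.72 per Mb (exact 95% Poisson interval 1.56 to 4.42). Their flanks, 9.54 Mb with each base counted once and other windows taken out, held 207 peaks, or 21.7 per Mb (18.8 to 24.9). The flanks thus had 7.97-fold more peaks per Mb (4.80 to 14.2, exact conditional 95% interval). Intervals here take peaks as independent events and reflect counting error alone. Covered bases differed more than peak number: peaks covered 20386 bases in the windows, 3467 per Mb, and 405901 bases in the flanks, 42540 per Mb, which is 12.3-fold more. Over the chromosomes as a whole, between their outermost peaks, the list had 15.4 peaks and 29.9 kb covered per Mb, so the flanks were denser than the genome at large and the windows sparser.

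**Figure D2:**
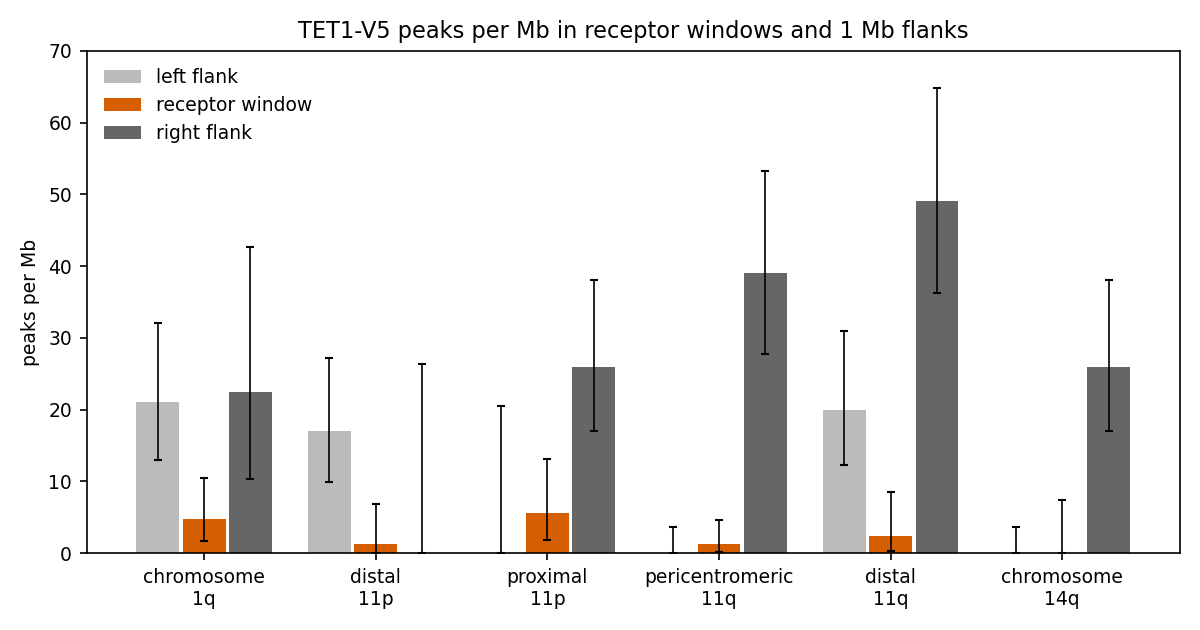
Peaks per Mb (y axis) in each receptor window and in its left and right flank, with exact 95% Poisson intervals of the counts as bars. Windows lie between 0 and 5.62 peaks per Mb. The flank sides with the lowest values are those towards the centromere on 11q and towards the start of chromosome 14, and 2 short sides on 11p. These are the right side of the distal window (0.140 Mb) and the left side of the proximal window (0.180 Mb, part of it beyond the distal window).

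Each window was sparser than its own flanks of 1 Mb, by amounts that the small counts leave wide and that move with the flank chosen. The chromosome 1q window held 6 peaks, 4.80 per Mb, against 30 in 1.40 Mb of flank, 21.4 per Mb, a 4.46-fold difference (1.83 to 13.1). Its right flank ended with the chromosome after 0.401 Mb. The proximal 11p window held 5 peaks, 5.62 per Mb, against 26 in flanks of 1.18 Mb, 22.0 per Mb, a 3.92-fold difference (1.48 to 13.1). These were the windows with most peaks, and all others held 2 or fewer.

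The distal 11q window held 2 peaks, 2.35 per Mb, while its flanks were the densest of all, with 69 peaks in 2 Mb or 34.5 per Mb (14.7-fold, 3.91 to 123.5). The pericentromeric 11q window, the longest at 1.57 Mb, also held 2, or 1.27 per Mb, against 39 in 2 Mb or 19.5 per Mb (15.3-fold, 3.96 to 131). The latter ratio of window to flank, 0.0653, was 0.116 with flanks of 0.5 Mb, 0.124 with 2 Mb and 0.0327 against the right side alone. In the distal 11p window there was 1 peak, 1.22 per Mb, against 17 in 1.14 Mb, 14.9 per Mb (12.2-fold, 1.92 to 511). As a ratio of window to flank this is 0.0818; it was 0.195 with flanks of 0.5 Mb, with an interval that includes 1 (0.00396 to 1.97), and 0.0301 with flanks of 2 Mb. The chromosome 14q window held none in 0.5 Mb, which allows up to 6 per Mb at a limit of 3 counts, against 26 peaks in 2 Mb of flank, or 13 per Mb. That is 2.17 times this limit, and the exact conditional interval, which also takes in the counting error of the flank, starts at 1.64-fold. The intervals of the 5 windows with a fold overlap, so no order among them can be read.

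Flank sides were unlike each other. To the left of the pericentromeric 11q window, towards the centromere, and to the left of the chromosome 14q window there was no peak in 1 Mb. This allows up to 3 per Mb by the same limit of 3 counts, if all of that length can hold a peak. Bases without sequence in the build were not taken out of any length, so a flank with such bases comes out sparser than its readable part. The right sides of these windows held 39 and 26. The pericentromeric 11q and chromosome 14q contrasts therefore rest on the right side alone. Those of 11p also had all flank peaks on 1 side: 17 to the left of the distal window and 26 to the right of the proximal window. Their other sides were only 0.140 and 0.180 Mb long and held none. On both sides of the distal 11q window peaks were frequent, 20 to the left and 49 to the right, and so they were around chromosome 1q, with 21.0 and 22.5 per Mb. Between the 2 windows of 11p lie 0.140 Mb without a peak. In RefSeq order the genes between these runs are the beta-globin genes, which encode haemoglobin chains, and 0 peaks in so short a stretch allows up to 21.4 per Mb.

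**Figure D3:**
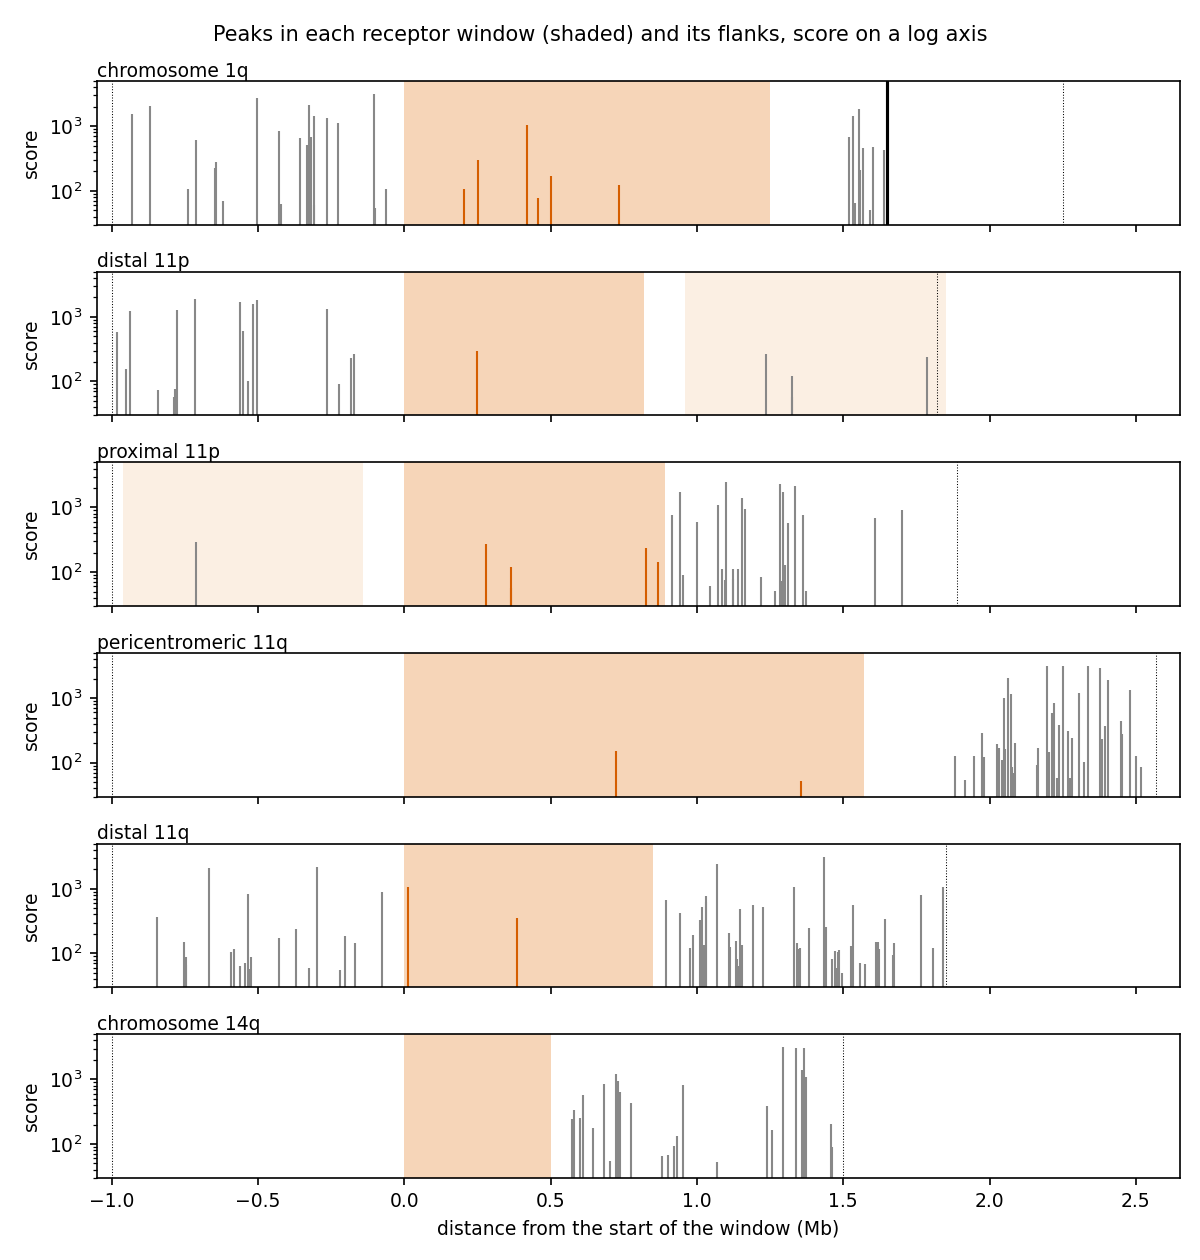
Peaks in the 6 windows (shaded) and their flanks by distance from the window's start (x axis, Mb), with the authors' score as the height of each line (y axis, log scale). Dotted lines mark the ends of the flanks, pale shading marks the neighbouring window of 11p and the heavy line the end of chromosome 1; orange lines are the peaks in the window of that row.

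Against the genome, the windows were sparse but not extreme one by one. Tiles of the same length laid over all chromosomes held no more peaks than the chromosome 1q window in 38.9% of cases, the distal 11p window in 20.1%, the proximal 11p window in 45.5%, the pericentromeric 11q window in 13.6%, the distal 11q window in 28.2% and the chromosome 14q window in 18% (the percentages count tiles over centromeres too). Without tiles at peak-free stretches of 3 Mb or more the share for the pericentromeric 11q window was 8.44%, and the others ranged from 13.0% to 41.7%. The median tile of those lengths held 9 peaks for chromosome 1q, 12 for pericentromeric 11q and 6, 6, 6 and 3 for distal 11p, proximal 11p, distal 11q and chromosome 14q. Read against these shares, low counts like those of the single windows were not rare in the genome. In tiles of 100 kb the windows had no peak in 45 of 56 (80.4%, Wilson 95% interval 68.2% to 88.7%), the flanks in 35 of 95 (36.8%, 27.8% to 46.9%) and the whole list in 50.2%.

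Pooled over the windows, density rose over the first 300 kb outside the edges. In the outermost 100 kb inside the windows there were 3 peaks, 2.5 per Mb, and from 100 to 200 kb inside there were none in 1.20 Mb (up to 2.5 per Mb by the limit of 3 counts). Deeper than 200 kb there were 13, or 3.74 per Mb (1.99 to 6.39). Outside, the first 100 kb had 7.89 per Mb (3.61 to 15.0), with an interval that overlaps those inside, the next 100 kb 19.4 (12.04 to 29.7) and the third 29.0 (19.4 to 41.7). Density from 200 to 800 kb outside stayed between 23.3 and 29.0 per Mb, and the last 200 kb had 17.8 and 12.8.

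**Figure D4:**
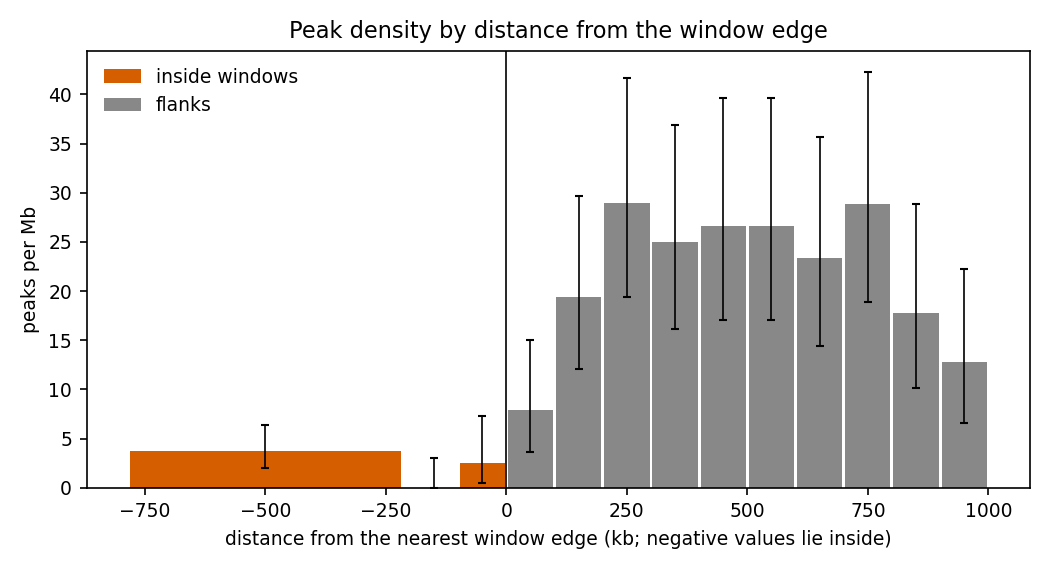
Peaks per Mb (y axis) by distance from the nearest window edge (x axis, kb, negative inside), pooled over the 6 windows, with exact 95% Poisson intervals. Density inside stays at or below 3.74 per Mb and reaches 19.4 per Mb between 100 and 200 kb outside.

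Long peak-free stretches took up much of each window, from 41.1% of chromosome 1q to 100% of chromosome 14q. The chromosome 14q window lay wholly inside one of 1.71 Mb, from 19066365 to 20773293, the rank 97 of 46183 stretches in the list by length. In the distal 11p window 69.5% fell in a stretch of 987 kb from 4630071 to 5616917, which crosses the space between the windows and ends in the proximal one. The pericentromeric 11q window began inside a stretch of 5.95 Mb from 49802752 to 55753649, rank 5, of which 724 kb lay in the window. This stretch runs from the window towards the centromere, and bases without sequence in the build were not taken out of its length. The other 3 windows held shorter ones: 783 kb from 248335963 to 249118643 at chromosome 1q, which runs beyond the window, 505 kb from 123987278 to 124492183 at distal 11q and 458 kb from 5706799 to 6164777 in proximal 11p. For scale, the median stretch between neighbouring peaks of the list was 13.2 kb and 99% were below 767 kb. These values count each stretch once whatever its length, so they are not shares of the genome. By length, peak-free sequence is common: 50.2% of 100 kb tiles of the whole list had no peak. How often tiles of the windows' lengths hold stretches as long was not tested.

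The pooled profile did not hold window by window, since the peaks nearest the outside of the edges were at unequal distances. Beyond the right edge the first peak came after 24.9 kb at proximal 11p, 42.2 kb at distal 11q, 73.3 kb at chromosome 14q, 269 kb at chromosome 1q and 312 kb at pericentromeric 11q. Before the left edge the last peak was 62.1 kb away at chromosome 1q, 73.1 kb at distal 11q and 170 kb at distal 11p. At chromosome 14q it was 1134 kb away and at pericentromeric 11q 5227 kb.

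All 16 peaks can be listed by place, with positions on hg19 counted from 1. At chromosome 1q the strongest was 248019531 to 248021657, 2127 bp wide with a score of 1033.37. Scores are the authors' own values, start at 50 and serve here only to rank peaks within the list; this peak outscored 81.8% of all human peaks. The 5 others in the window were weaker: 247802449 to 247803415 (score 107.97), 247850487 to 247851553 (302.68), 248056582 to 248057637 (78.16), 248099900 to 248101076 (169.51) and 248334803 to 248335962 (121.97). They were 967 to 1177 bp wide. The last 514 kb of the window held none.

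On 11p the single peak of the distal window ran from 4628581 to 4630070 (1490 bp, score 293.87), 419 kb from any other. The proximal window had 3 peaks towards its middle and 2 near its right edge. Towards the middle were 5616918 to 5618555 (1638 bp, 269.50) and a close pair, 5703829 to 5704604 (776 bp, 56.89) and 5705751 to 5706798 (1048 bp, 122.02), 1.15 kb apart. Those at the edge were 6164778 to 6165817 (1040 bp, 235.65) and 6206468 to 6207570 (1103 bp, 145.16), 64.7 and 23.0 kb from it. No peak inside the windows of 11p reached a score of 300.

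On 11q the peak nearest an edge was the strongest of all 16: 123610985 to 123613294 in the distal window, 2310 bp wide with a score of 1074.44, sat 12.1 kb inside the left edge. The other in that window was 123985548 to 123987277 (1730 bp, 358.65). In the pericentromeric window the peaks were isolated and weak: 55753650 to 55754536 (887 bp, 152.95) was 631 kb from its nearest neighbour, and 56385910 to 56386719 (810 bp, 52.29) was 525 kb from its own. Only 2.73% of the list scored below the latter. Gene annotation on hg19 was not used here, so the genes at these 16 positions are not named.

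Peaks inside the windows were narrower than those beside them, and none reached a score of 3100. Median width was 1085 bp (quartiles 1022 and 1527) against 1691 bp (1234 and 2458) in the flanks and 1531 bp in the whole list. No window peak was 2.5 kb or wider, while 50 of 207 flank peaks (24.2%) were. The median score was 161 (quartiles 118 and 296) in the windows, 231 (103 and 832) in the flanks and 172 in the list. Scores of 3100 or more, where most of the top of the list is tied, were found in 0 of 16 window peaks, which allows a share of up to 18.8%, and in 8 of 207 flank peaks (3.86%, Wilson interval 1.97% to 7.44%). The share in the whole list was 4.685%. With so few window peaks, a difference from the share in the flanks or in the list was not detectable.

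The windows were not short of weak peaks alone or of strong peaks alone. For scores of 1000 or more there were 2 in the windows and 46 in the flanks, a 14.2-fold difference per Mb (3.71 to 121). From 300 to 1000 the counts were 2 and 47 (14.5-fold, 3.79 to 123). From 100 to 300 they were 9 and 64 (4.38-fold, 2.17 to 10.02), and from 50 to 100 they were 3 and 50 (10.3-fold, 3.32 to 51.5). These 4 intervals overlap, and a difference between the classes was not tested. Peaks with scores below 100 made up 18.8% of the window peaks (6.59% to 43.0%) and 24.2% of the flank peaks (18.8% to 30.4%). In the whole list they made up 32.9%. Scores of 1000 or more were held by 12.5% of the window peaks (3.50% to 36.0%), 22.2% of the flank peaks and 18.6% of the list.

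**Figure D5:**
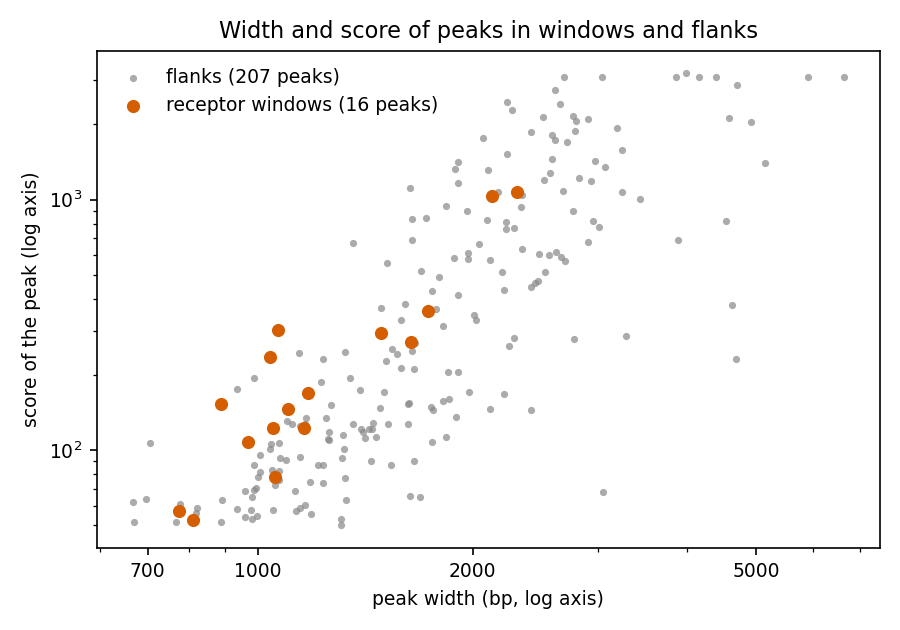
Width (x axis, bp) against the authors' score (y axis) on log axes for 16 peaks in the windows and 207 in the flanks. Window peaks span 776 to 2310 bp and none reaches 2.5 kb or a score of 3100.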

How the data were processed

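The files hold 1 list of peaks for a V5 ChIP of tagged TET1 against input. Reads were aligned with BWA 0.7.17 to hg19, per the submitters' processing notes, and the peak names in the deposited file are those of the caller MACS; for its version and settings, the sources used here give nothing. The deposited score of each peak has no stated unit and was used only to rank and describe peaks. Peak starts were taken to count from 0. Peaks per Mb and covered bases were computed with scipy 1.17.1, numpy 2.4.6 and pandas 2.3.3 in Python 3.11.15. Flanks were 1 Mb on each side, ended at the chromosome end and left out bases of other windows. The computation of ratios was checked on simulated peaks with known ratios, placed independently and evenly along each region. The real flank sides differed in density, so this checks the arithmetic and not whether the intervals hold for these data. Peaks in windows with at most 10 of them were all named. For genes with several RefSeq starts the first listed was used, and the promoters printed are the receptor gene nearest the median CpG count of its arm (ties by symbol) and the neighbour with most CpG. The windows and lists were chosen with earlier results of these data known. Alternatives were flank lengths, literal flanks, score thresholds, merging, tile sizes and leaving out each window. With 1 library a group there is no test, and intervals cover counting error only.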

Additional observations from a re-analysis of the deposited data

How the results depend on the processing

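Of 62 alternative values for 19 results, 57 stayed within the interval or quartiles of the value reported, 5 moved and 0 reversed. Only ratios of windows to flanks could reverse, by crossing 1, and that of chromosome 14q, whose window held no peak, could not. Intervals from few peaks are wide, so for single windows staying inside them is a weak check. Covered bases have no interval of their own, and their limits were those of the peak ratio scaled to the covered ratio. With the upper 25% of the score the ratio of peaks per Mb in windows to flanks was 0.0507 (0.00601 to 0.191) in place of 0.125, and that of covered bases 0.0390 in place of 0.0815; only 2 window peaks were left, so the cause was not tested. Leaving out each window gave 0.0993 (without chromosome 1q) to 0.152 (without distal 11q) for peaks and 0.0656 to 0.103 for covered bases. Without the flank sides at the chromosome 1 end, the centromere side of 11q and the start of chromosome 14 the peak ratio was 0.0981, and with literal flanks 0.146. The proximal 11p ratio was 0.1498 with flanks of 0.5 Mb in place of 0.255, and the distal 11q ratio 0.118 against the left side and 0.0480 against the right in place of 0.0682. Tiles of 50 kb were without a peak in 87.9% in windows, 50% in flanks and 64.9% in the whole list, smaller tiles holding fewer peaks by construction. Without tiles at peak-free stretches of 3 Mb or more, chosen after seeing the data, the whole list had 47.0% of 100 kb tiles without a peak. Sides without a peak gave no ratio. No paired analysis was possible because there is only 1 ChIP library and 1 input library. The unknown read depth and the 16 peaks limit the precision, and a window without a peak is not shown to be without TET1.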
